A study of Mus musculus with 8 samples.

Results

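The 10 genes described here serve the presentation of peptides on major histocompatibility complex (MHC) class I molecules. They were chosen by name for their roles, with earlier results of these data known. All 10 were found among the 56923 genes counted in bulk RNA sequencing of mouse thymic epithelial cells (TECs). They comprise the light chain gene *B2m*, the heavy chain genes *H2-K1*, *H2-D1* and *H2-T23*, the peptide transporter genes *Tap1* and *Tap2*, the loading and trimming genes *Tapbp*, *Calr* and *Erap1*, and *Nlrc5*, which encodes a transcriptional activator of class I genes. Of these, 9 had enough counts to be tested, and *Nlrc5* did not.

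The study asked how TECs kept as organoids compare with fresh cells and with TECs in standard 2D culture. There were 4 groups with 2 libraries each, all from wild-type C57BL/6J mice at embryonic day 16.5 and given no treatment. *In vivo* TECs were sorted as EpCAM-positive cells and lysed directly. 2D-cultured TECs were the same kind of sorted cells grown on laminin until they formed a monolayer, at 3 days, and organoids were grown from sorted cells in Matrigel and lysed at 3 days (D3) or 7 days (D7). All cultures shared a defined medium with FGF7, a growth factor that thymic mesenchyme supplies, and the methods describe the inhibitor thiazovivin in the medium of the first days of organoid culture. No culture held thymocytes by design, and 2D culture could not be prolonged because the cells detached. The labels call the libraries of a group biological replicates but do not say whether they came from separate litters, so the p-values measure the spread between these libraries.

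MHC class I molecules show peptides from inside the cell to CD8 T cells. A heavy chain pairs with β2-microglobulin in the endoplasmic reticulum, where a loading complex holds the dimer beside the transporter that brings in peptides cut by the proteasome. In the thymic cortex, TECs present such peptides to developing thymocytes and so select those that become CD8 T cells. Interferons raise the expression of many of these genes.

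The promoters of the class I genes are known for a conserved module that NLRC5, RFX, CREB/ATF and NF-Y proteins occupy, and for an upstream enhancer with sites for NF-κB and interferon regulatory factors. In RefSeq's table of promoters (GRCm38.p6), windows from 250 bases before to 50 bases after the start were given for 8 of the 10 genes, with *Tap2* and *Nlrc5* missing. Among these 8, the CRE core TGACG followed after 10 to 30 bases by the inverted CCAAT box ATTGG was found, in either orientation, in *B2m*, *H2-K1* and *H2-D1*, and in 0.743% of all 32851 windows. In all 3 genes the gap between these motifs was 20 bases. The stretches are shown because they are what the light chain and the classical heavy chains share, with the CRE core and the CCAAT box in capitals. They were placed on GRCm39 by an exact match of the promoter sequence, at chr2:121978090-121978119 (plus strand), chr17:34219333-34219362 (minus strand) and chr17:35481969-35481998 (plus strand). GENCODE places the starts of *B2m* and *H2-D1* further upstream than RefSeq, so for these genes the stretches fall inside the annotated gene.
B2m: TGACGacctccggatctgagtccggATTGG
H2-K1: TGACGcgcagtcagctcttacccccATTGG
H2-D1: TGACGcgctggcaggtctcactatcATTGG

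The same 3 promoters held, further upstream, an NF-κB-type core (GGGNNNNNCCC) beside an ISRE-type core (AANTGAAA), each searched on both strands. The first occurred in 14% of all windows and the second in 6.58%. How often the cores lie beside each other over all windows was not counted. These stretches, with both cores in capitals, lie at chr2:121978031-121978051 (plus), chr17:34219404-34219432 (minus) and chr17:35481899-35481927 (plus).
B2m: AACTGAAAatGGGAAAGTCCC
H2-K1: GGGGATTCCCCatctccacagTTTCACTT
H2-D1: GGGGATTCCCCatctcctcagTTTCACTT

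Between *H2-K1* and *H2-D1*, 28 of the 29 bases of this stretch were identical, against 23 of the 30 bases of the stretch with the CRE core. *Tap1* held a CRE core, a CCAAT box and an NF-κB-type core in its window but neither the pair nor the ISRE-type core. *Tapbp* held CCAAT boxes without any of the other motifs. *H2-T23* held a CCAAT box alone, and *Erap1* an ISRE-type core alone. *Calr*, the chaperone gene of the set, held CCAAT boxes and an NF-κB-type core. It also held an ER stress element (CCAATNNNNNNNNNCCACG, both strands), whose first letters are also a CCAAT box. The element was found in 0.119% of windows. It lies at chr8:85573704-85573722 on the minus strand and reads in full as follows.
Calr: CGTGGTCGACCCTCATTGG

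A match of letters is a description and does not show that a factor binds there.

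Levels are given as CPM, read counts scaled to the same total in every library and adjusted between libraries by TMM factors. Libraries held 5084715 to 7612532 counts, so that a level of 1 CPM rests on a handful of reads. Differences were tested with edgeR over 14504 genes, and a gene was called when its Benjamini-Hochberg adjusted p was at most 0.05. Of 10 TEC markers, the epithelial ones were present in all 8 libraries, with *Epcam* at 191 to 811.1 CPM and *Krt18*, encoding a simple epithelial keratin, at 249.8 to 3585 CPM. Those particular to the thymic epithelium were lower in the cultures. *Foxn1*, encoding the transcription factor that TECs need to develop, had 223.3 and 273.5 CPM *in vivo*, 8.52 and 4.82 in 2D, 8.76 and 9.61 in D3 organoids and 60.5 and 84.9 in D7 organoids. *Prss16*, encoding the thymus-specific serine protease, was 15.9 to 2893 CPM and lowest in 2D, *Ly75* had means of 390.1 CPM *in vivo* and 20.8 to 39.7 CPM in the cultures, and *Cd83* had 3 and 0 counts in 2D against a mean of 145.9 CPM *in vivo*. Of all genes tested, 14.0% were lower and 14.1% higher at D3 than *in vivo*, and 16.8% were lower and 18.0% higher at D7. *In vivo* against 2D, 21.7% of all genes were higher and 19.9% lower. Of the 10 markers, 7 were lower at D3 and 8 at D7 than *in vivo*, 2 and 1 were higher, and 5 were higher and 5 lower *in vivo* than in 2D. The 5 lower *in vivo* were *Epcam*, *Krt8*, *Krt18*, *Krt5* and *Krt14*. The last had means of 21.0 CPM *in vivo* and 980.1 CPM in 2D, and *Krt5* had 258 and 692.4 CPM. *Foxn1*, *Ly75*, *Cd83*, *Krt8*, *Krt5* and *Krt14* were named after their values were seen. Thymocyte markers set the *in vivo* libraries apart. The summed level of 12 such genes was 707.1 and 310.7 CPM *in vivo* and 3.71 to 13.9 CPM in the 6 cultures, with *Rag1* at 286.1 and 132.7 CPM *in vivo*. Because these are bulk samples, fewer cells of a type and less RNA per cell cannot be told apart.

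*B2m* (chr2:121977957-121983594, plus strand) encodes β2-microglobulin, the light chain that pairs with the heavy chains. It was measured at 525.2 and 439.9 CPM *in vivo*, at 318 and 315.6 CPM in 2D, at 90.5 and 103.2 CPM in D3 organoids and at 98.1 and 85.9 CPM in D7 organoids. Both *in vivo* libraries were above both 2D libraries, and all 4 organoid libraries were far below these, with D3 and D7 overlapping. D3 organoids were 4.98-fold lower than *in vivo* TECs (log2 fold change −2.32, SE 0.161, adjusted p = 7.63e-09 by edgeR) and 3.27-fold lower than 2D (log2 fold change −1.71, SE 0.159, adjusted p = 1.9e-07). D7 organoids were 5.24-fold lower than *in vivo* TECs (log2 fold change −2.39, adjusted p = 6.33e-09) and 3.44-fold lower than 2D (adjusted p = 1e-07). Between D7 and D3 the log2 fold change was −0.073 (SE 0.158, adjusted p = 0.797). *In vivo* TECs exceeded 2D by 1.52-fold (log2 fold change 0.61, SE 0.153, adjusted p = 0.00403), but this call was lost without *in vivo* replicate 1 (log2 fold change 0.47). Thymocyte markers were present in both *in vivo* libraries, at a summed 707.1 and 310.7 CPM. Their part in this difference was not tested.

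*H2-K1* (chr17:34214987-34219321, minus strand) and *H2-D1* (chr17:35481691-35486475, plus strand) encode the classical heavy chains. *H2-K1* had 192.4 and 157.6 CPM *in vivo*, 237.8 and 179.1 CPM in 2D, 75.5 and 88.9 CPM in D3 organoids and 59.4 and 56.7 CPM in D7 organoids. 2D and *in vivo* libraries overlapped, and every organoid library lay below them. *H2-D1* was at 111.2 and 109.4 CPM *in vivo*, at 169.3 and 134.3 CPM in 2D, at 66.4 and 57.0 CPM in D3 organoids and at 46.4 and 27.6 CPM in D7 organoids. For this gene the 4 groups did not overlap, with 2D at the top and D7 organoids at the bottom.

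The heavy chain genes fell in organoids from both reference points. *H2-K1* was 2.54-fold lower in D3 organoids than in 2D (log2 fold change −1.34, SE 0.179, adjusted p = 1.33e-05) and 2.13-fold lower than *in vivo* (adjusted p = 0.000166). In D7 organoids it was 3.59-fold lower than in 2D (adjusted p = 3.73e-07) and 3.01-fold lower than *in vivo* (adjusted p = 3.45e-06). *H2-D1* was 2.46-fold lower in D3 organoids than in 2D (adjusted p = 0.000103), and its log2 fold change of −0.84 from *in vivo* passed the test with all libraries (adjusted p = 0.00605) but not without D3 replicate 2 (−0.66, adjusted p = 0.0954). D7 organoids were 4.06-fold below 2D (log2 fold change −2.02, SE 0.218, adjusted p = 1.01e-06) and 2.95-fold below *in vivo* TECs (adjusted p = 2.8e-05) in *H2-D1*.

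Unlike *B2m*, neither heavy chain gene was called higher *in vivo* than in 2D. The log2 fold change of *in vivo* over 2D was −0.25 for *H2-K1* (SE 0.175, adjusted p = 0.265) and −0.46 for *H2-D1* (SE 0.206, adjusted p = 0.0839). The second value passed the threshold under 4 of 9 alternatives with all libraries, where its adjusted p ranged from 0.0238 to 0.32. From D3 to D7, *H2-D1* fell by 0.72 on the log2 scale (SE 0.217, adjusted p = 0.026), a call lost without D3 replicate 1 (−0.61, adjusted p = 0.158) or D7 replicate 2 (−0.41, adjusted p = 0.331). *H2-K1* had a log2 fold change of −0.50 over the same days (adjusted p = 0.0606), and 7 of the 9 alternatives put it past the threshold. In the last 500 bases of its transcript, 9.53% of the 50-base words of *H2-D1* recur in other genes, against 0.443% for *H2-K1*, whose shared words are all in *H2-D1*, so reads there could be split or dropped depending on how repeated matches were counted.

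*H2-T23* (chr17:36340229-36345571, minus strand) encodes the nonclassical heavy chain Qa-1. It had 9 and 8 counts *in vivo*, 5 and 6 in 2D, 2 and 12 in D3 organoids and 23 and 10 in D7 organoids. These are near the limit of 3 counts taken as the floor, and differences between groups were not detectable at this depth, with standard errors of 0.966 to 1.05 on the log2 scale. Of the 50-base words in its last 500 bases, 43% recur in 268 other genes, which makes the count itself uncertain.

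**Figure D1:**
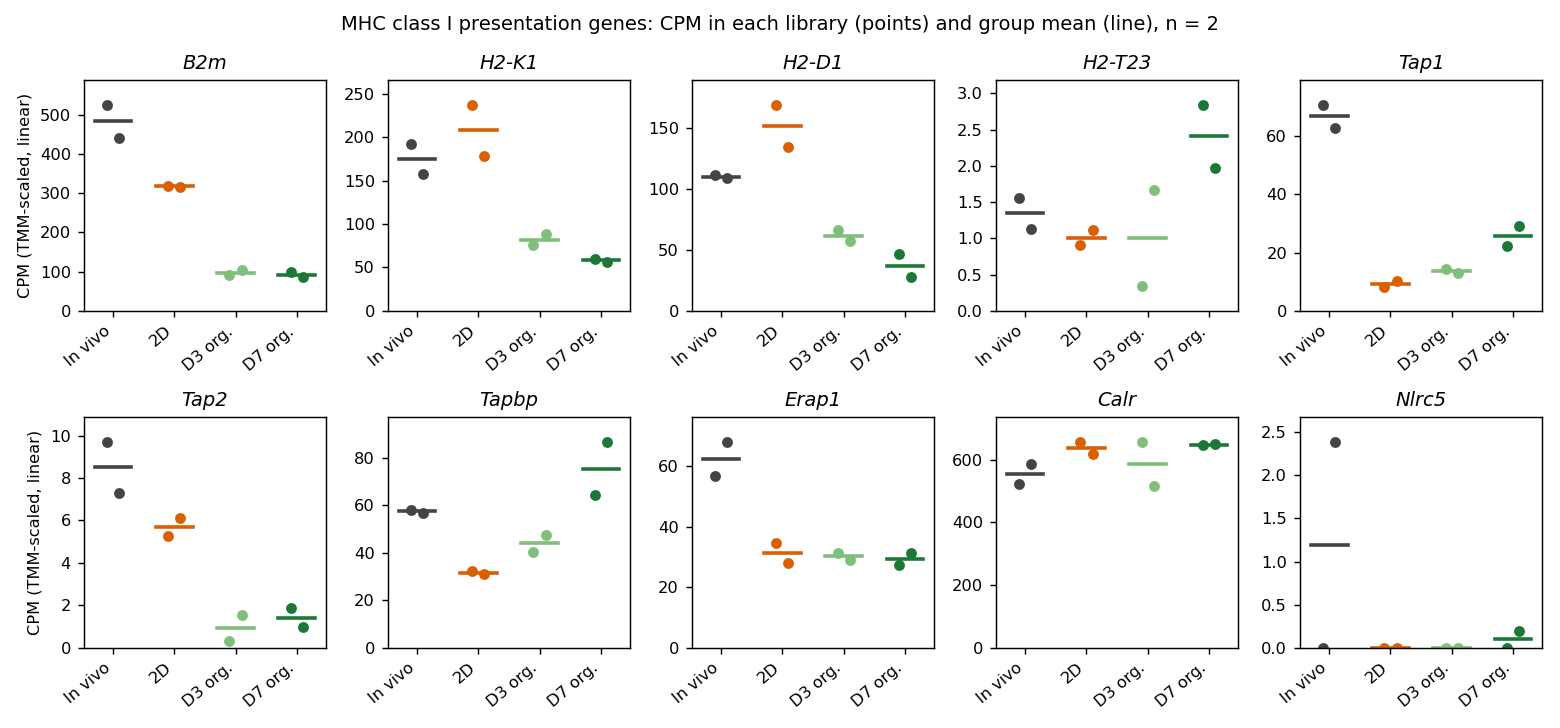
Level of each of the 10 genes in CPM (linear axis from 0, TMM-scaled) in each library (points) and as the mean of the group (line), n = 2 libraries a group. *B2m*, *H2-K1*, *H2-D1* and *Tap2* are lowest in both organoid groups, *Tap1* and *Erap1* are highest *in vivo*, and *Tapbp* reaches 64.1 and 86.7 CPM in D7 organoids.

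*Tap1* (chr17:34405996-34416199, plus strand) encodes one chain of the transporter that carries peptides into the endoplasmic reticulum, and it followed another order. It was measured at 70.8 and 62.7 CPM *in vivo*, 8.16 and 10.2 CPM in 2D, 14.5 and 12.96 CPM in D3 organoids and 22.3 and 29.2 CPM in D7 organoids. The groups did not overlap, and 2D was lowest. *In vivo* TECs exceeded 2D by 7.26-fold (log2 fold change 2.86, SE 0.248, adjusted p = 5.67e-08), D3 organoids by 4.86-fold (adjusted p = 8.71e-07) and D7 organoids by 2.61-fold (adjusted p = 0.000124). D7 organoids in turn were 2.78-fold above 2D (log2 fold change 1.48, SE 0.251, adjusted p = 0.000134). They were 1.86-fold above D3 organoids (log2 fold change 0.90, SE 0.237, adjusted p = 0.0124), a call that was lost without D3 replicate 2 (0.75, adjusted p = 0.108) or D7 replicate 2 (0.70, adjusted p = 0.16). D3 organoids and 2D, next to each other in the order, had a log2 fold change of 0.58 that missed the threshold (adjusted p = 0.0873).

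*Tap1* lies beside *Psmb9*, which encodes an immunoproteasome subunit, is transcribed from the opposite strand and overlaps it. *Psmb9* had 113.1 and 110.4 CPM *in vivo* and 1.09 to 6.80 CPM in the cultures. There were 0.626 and 0.568 reads of *Tap1* for each read of *Psmb9* *in vivo*, against 7.5 and 4.58 in 2D, 7.82 and 4.90 in D3 organoids and 3.27 and 6.44 in D7 organoids. The sources used here do not state whether counting used the strand, so reads from the overlap could have been given to either gene.

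*Tap2* (chr17:34422501-34435829, plus strand) encodes the other chain of the transporter and was scarce. It had 56 and 52 counts *in vivo*, 29 and 33 in 2D, 2 and 11 in D3 organoids and 15 and 5 in D7 organoids, which is 9.72 and 7.31, 5.26 and 6.11, 0.337 and 1.53, and 1.86 and 0.985 CPM. Every organoid library was below every other library. From *in vivo* TECs, the log2 fold change was −3.11 in D3 organoids (SE 0.691, adjusted p = 0.0023) and −2.52 in D7 organoids (SE 0.657, adjusted p = 0.00642). The D3 value ranged from −2.46 without D3 replicate 1 to −4.51 without D3 replicate 2, and the D7 call was lost without D7 replicate 2 (−2.18, adjusted p = 0.0798).

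From 2D, *Tap2* had a log2 fold change of −2.53 in D3 organoids (SE 0.699, adjusted p = 0.00794), and −1.88 without D3 replicate 1, with the call lost (adjusted p = 0.0645), or −3.98 without D3 replicate 2 (adjusted p = 0.00588). The D7 value of −1.94 (SE 0.665, adjusted p = 0.0239) lost its call when any of 4 libraries was left out: 2D replicate 1 (adjusted p = 0.0602), 2D replicate 2 (0.0873), D7 replicate 1 (0.053) or D7 replicate 2 (0.161). *In vivo* and 2D differed by 0.58 on the log2 scale (SE 0.589, adjusted p = 0.458). The 2 chains of the transporter thus had different orders of groups, with 2D lowest for *Tap1* and organoids lowest for *Tap2*.

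*Tapbp* (chr17:34134873-34148267, plus strand) encodes tapasin, which bridges class I molecules and the transporter. It had 58.1 and 56.7 CPM *in vivo*, 32.1 and 30.9 CPM in 2D, 40.4 and 47.4 CPM in D3 organoids and 64.1 and 86.7 CPM in D7 organoids. D7 organoids were the highest group and 2D the lowest, without overlap. *In vivo* TECs were 1.82-fold above 2D (log2 fold change 0.86, SE 0.201, adjusted p = 0.00224), and D7 organoids were 2.38-fold above 2D (log2 fold change 1.25, SE 0.201, adjusted p = 7.67e-05). D7 organoids were also 1.71-fold above D3 organoids (log2 fold change 0.77, adjusted p = 0.00944), but not past the threshold without D3 replicate 1 (0.67, adjusted p = 0.09) or D7 replicate 2 (0.54, adjusted p = 0.179). Neighbours in the order were not separated by the test: D7 organoids against *in vivo* TECs had a log2 fold change of 0.39 (SE 0.193, adjusted p = 0.132), D3 organoids against *in vivo* TECs −0.39 (SE 0.196, adjusted p = 0.161), and D3 organoids against 2D 0.48 (SE 0.202, adjusted p = 0.0706). *Tapbp* overlaps *Zbtb22* on the same strand.

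*Erap1* (chr13:74787687-74841320, plus strand) encodes the aminopeptidase that trims peptides in the endoplasmic reticulum to the length class I molecules hold. It was at 56.7 and 68.1 CPM *in vivo*, 34.4 and 28.0 CPM in 2D, 31.2 and 29.1 CPM in D3 organoids and 27.5 and 31.3 CPM in D7 organoids. The *in vivo* libraries stood alone, and the 3 cultures overlapped. *In vivo* TECs were 2.00-fold above 2D (SE of the log2 fold change 0.206, adjusted p = 0.000816), 2.07-fold above D3 organoids (adjusted p = 0.000807) and 2.13-fold above D7 organoids (adjusted p = 0.000515). Between cultures the log2 fold changes were −0.051, −0.091 and −0.04, with standard errors of 0.209 to 0.210. *Erap1* overlaps *Cast* on the other strand.

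*Calr* (chr8:85567946-85573667, minus strand) encodes calreticulin, a chaperone that folds many glycoproteins and holds class I heavy chains in the loading complex. It had 522.3 and 586.6 CPM *in vivo*, 656.8 and 618.6 CPM in 2D, 657.5 and 515.9 CPM in D3 organoids and 646.7 and 649.8 CPM in D7 organoids. It was called in no comparison, with log2 fold changes between −0.20 and 0.23 and standard errors of 0.149 to 0.150.

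*Nlrc5* (chr8:95160984-95253900, plus strand) encodes an activator known to occupy the conserved module of class I promoters, whose binding was not measured here. It had 0 and 17 counts *in vivo*, 0 and 0 in 2D, 0 and 0 in D3 organoids and 0 and 1 in D7 organoids. All its *in vivo* counts came from replicate 2, so no level per group can be given. It was below the filter, and when the filter was dropped its adjusted p was 0.142 to 1 over the 6 comparisons. In the cultures it was at or under the floor of 3 counts, or 0.371 to 0.591 CPM.

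The counts of called members are set here against the share of all genes called in the same comparison. The members and the lists below were chosen with earlier results of these data known, so the counts describe them and are no independent test. In D3 organoids against *in vivo* TECs, 6 of the 9 tested genes were called, all lower (*B2m*, *H2-K1*, *H2-D1*, *Tap1*, *Tap2* and *Erap1*), where 28.2% of all 14504 genes were called, and 14.0% of all genes were lower. The median log2 fold change was −1.05 for the 9 genes and −0.01 for all genes. The same 6 were lower in D7 organoids than *in vivo*, where 34.8% of all genes were called, 16.8% lower and 18.0% higher, with medians of −1.38 and 0.012. Without *in vivo* replicate 1, 6 genes were again called in each of these comparisons. The part that the thymocyte RNA of the *in vivo* libraries plays in these differences was not tested. These comparisons share the *in vivo* libraries and so are not independent of each other.

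Against 2D, the directions were mixed. *In vivo*, 4 of the 9 genes were higher (*B2m*, *Tap1*, *Tapbp* and *Erap1*) and 0 lower, where 41.6% of all genes were called, 21.7% higher and 19.9% lower. The share called is near that of all genes. The call of *B2m* was lost without *in vivo* replicate 1, when fewer of all genes were called too. In D3 organoids, 4 genes were lower than in 2D (*B2m*, *H2-K1*, *H2-D1* and *Tap2*) and 0 higher, where 38.3% of all genes were called and 19.1% were lower. At D7 the same 4 were lower and *Tap1* and *Tapbp* were higher, where 45.5% of all genes were called, 24.4% higher and 21.1% lower. Median log2 fold changes of the 9 genes were 0.58 (*in vivo*), −0.12 (D3) and −0.091 (D7), beside 0.056, 0.024 and 0.10 for all genes. From D3 to D7, 3 genes were called (*Tap1* and *Tapbp* higher, *H2-D1* lower), where 20.8% of all genes were called, 10.9% higher and 9.90% lower. None of these calls held without D7 replicate 2, and not all held without D3 replicate 1. Fewer of all genes were called in these fits too.

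**Figure D2:**
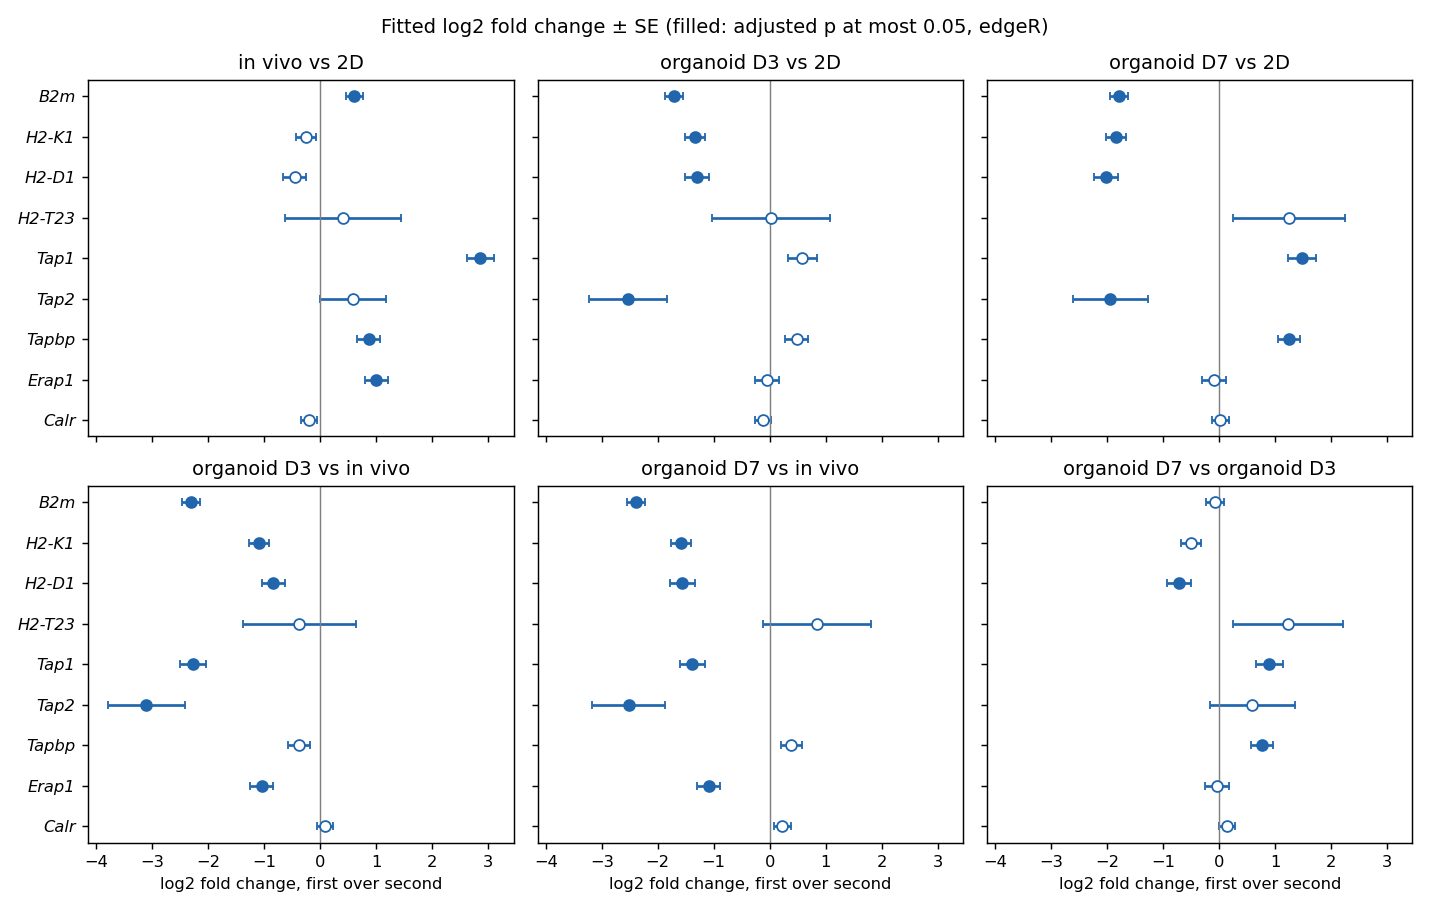
Fitted log2 fold change ± standard error of the 9 tested genes in each of the 6 comparisons, first group over second, with filled points for adjusted p of at most 0.05 (edgeR, n = 2 libraries a group). *B2m*, *H2-K1* and *H2-D1* lie left of 0 in the 4 comparisons of organoids with 2D or *in vivo* TECs, *Tap1* and *Tapbp* lie right of 0 in the comparisons of D7 organoids with 2D and with D3, and *Calr* stays within 0.23 of 0.

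Ratios within a library do not depend on scaling between libraries. There were 1.73 and 1.65 reads of *B2m* for each read of *H2-K1* and *H2-D1* together *in vivo*, 0.781 and 1.01 in 2D, 0.638 and 0.708 in D3 organoids and 0.928 and 1.02 in D7 organoids. The *in vivo* libraries thus held the most light chain reads for each heavy chain read and D3 organoids the fewest, while 2D and D7 organoids overlapped. For each read of *Tap1* there were 0.821 and 0.904 reads of *Tapbp* *in vivo*, against 2.79 to 3.93 in the 6 cultures. With 2 libraries against 2, an exact permutation test cannot go below p = 0.333 (two-sided), so these ratios are given without a test.

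**Figure D3:**
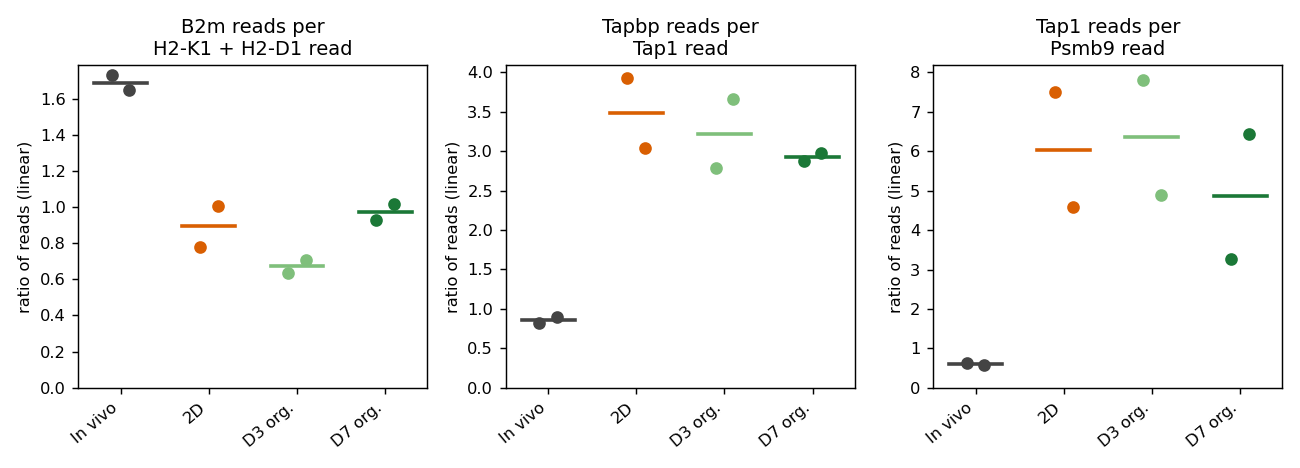
Ratio of reads of the named genes within each library (points, linear axis from 0) and the mean of the group (line), n = 2 libraries a group. *In vivo* libraries have the most *B2m* reads for each heavy chain read, 1.73 and 1.65, and the fewest *Tapbp* reads for each *Tap1* read, 0.821 and 0.904.

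Over the 8 libraries, the members fell into more than one pattern. Pearson's r of log2(CPM + 1) was 0.954 between *H2-K1* and *H2-D1*, 0.919 between *B2m* and *H2-K1* and 0.966 between *B2m* and *Tap2*. By contrast it was 0.005 between *H2-K1* and *Tap1* and −0.766 between *H2-D1* and *Tapbp*. These values describe 4 groups of 2 libraries, so they can largely reflect differences between the groups. All genes of a library also share its depth and scaling. Of 9002 other genes with a mean of at least 10 CPM, those most like *H2-K1* were *Ralb*, encoding a Ras-like GTPase (r = 0.991), *Prep*, encoding a prolyl peptidase (0.991), *Cnn3*, encoding a calponin (0.984), *Hspa1b*, encoding an inducible heat shock protein (0.982), and *Vim*, encoding vimentin (0.982). *Vim*, for instance, had mean levels of 85.7 CPM *in vivo*, 176.5 in 2D, 15.4 in D3 organoids and 7.25 in D7 organoids.

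The proteasome supplies the peptides, and its subunit genes *Psmb8* to *Psmb11* were far higher *in vivo*. Of 9 genes listed, *Psmb8*, *Psmb9*, *Psmb10* and *Psmb11* were higher *in vivo* than in 2D and *Psmb7* and *Psme1* lower, where 41.6% of all genes were called. The same 4 were lower in D3 and D7 organoids than *in vivo*, together with *Psmb7* and *Psme2* at D7, where *Psme1* was higher, beside 28.2% and 34.8% of all genes called. *Psmb10*, encoding an immunoproteasome subunit, had 291.5 and 311.9 CPM *in vivo*, 8.34 and 12.04 in 2D, 22.4 and 21.0 in D3 organoids and 57.5 and 62.7 in D7 organoids. Its order was that of *Tap1*, with the cultures in the sequence 2D, D3, D7. *Psmb11*, encoding the cortical thymoproteasome subunit, had 3 counts in each 2D library and 3 and 7 in D3 organoids, but 106.1 and 112.3 CPM in D7 organoids.

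Interferon response genes were mostly highest *in vivo*. Of 19 tested interferon response genes, 16 were higher *in vivo* than in 2D and 0 lower, and 15 were lower in each of D3 and D7 organoids than *in vivo*, with median log2 fold changes of 2.80, −3.42 and −2.50. Of all genes, 21.7% were higher *in vivo* than in 2D, and 14.0% and 16.8% were lower at D3 and D7 than *in vivo*. *Oasl2*, encoding a relative of the antiviral oligoadenylate synthetases, had 153.4 and 168.2 CPM *in vivo* and 18.5 to 32.1 CPM in the cultures. Between organoids and 2D the response genes were split, with 3 higher (*Ifit2*, *Iigp1* and *Ifih1*) and 6 lower at D3 and 4 higher (the same with *Ifi27*) and 5 lower (*Isg15*, *Ifit1*, *Bst2*, *Ifi35* and *Cxcl10*) at D7, beside 38.3% and 45.5% of all genes called. *Iigp1*, encoding an interferon-inducible GTPase, and *Ifih1*, encoding an RNA sensor, were the most abundant of the higher ones (log2 fold changes at D3 of 3.58, adjusted p = 5.04e-10, and 1.77, adjusted p = 6.54e-06).

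Of 9 genes for interferon receptors and signalling, 6 were lower in D3 organoids than in 2D and 0 higher, where 19.1% of all genes were lower. *Jak1* and *Jak2*, encoding kinases of the receptors, were among them, with log2 fold changes of −0.66 (adjusted p = 0.00119) and −0.84 (adjusted p = 0.00548). *Ifngr2*, encoding a chain of the interferon-γ receptor, was at 33.7 and 52.4 CPM *in vivo*, at 82.5 and 58.2 in 2D, at 15.5 and 18.1 in D3 organoids and at 23.99 and 12.8 in D7 organoids (log2 fold change at D3 against 2D −2.06, adjusted p = 2.52e-05). At D7, 3 were lower than in 2D (*Ifngr1*, *Ifngr2* and *Jak2*) and 2 higher (*Stat2* and *Irf9*), a count near the 45.5% of all genes called. Against *in vivo*, 6 were lower at D3 and 3 at D7 (*Ifngr2*, *Jak2* and *Irf9*), and 0 higher, where 14.0% and 16.8% of all genes were lower. *In vivo* TECs had 2 higher than 2D (*Stat2* and *Irf9*) and *Ifngr2* lower, where 41.6% of all genes were called.

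Among 12 partners that transcribe class I genes, 7 were higher *in vivo* than in 2D, with *Rela* lower, where 21.7% of all genes were higher. In organoids, 4 at D3 (*Rfxank*, *Nfyb*, *Nfyc* and *Nfkb1*) and 6 at D7 were higher than in 2D and 0 lower. The number called was below the 38.3% of all genes at D3 and near the 45.5% at D7, with 19.3% and 24.4% of all genes higher. *Nfkb1*, encoding an NF-κB subunit, was at 54.9 and 63.2 CPM in 2D, at 222.4 and 215.9 in D3 organoids, at 159.4 and 135.9 in D7 organoids and at 125.5 and 147.9 *in vivo*. *Nfyb*, encoding a subunit of the factor that binds CCAAT boxes, was 60.6 and 65.6 CPM in 2D and 98.1 to 108 CPM in the organoids (log2 fold change at D3 0.71, adjusted p = 0.00326). *Creb1*, encoding a CRE-binding factor, was higher *in vivo* (0.65, adjusted p = 0.00239) and at D7 (0.55, adjusted p = 0.00772) than in 2D. Against *in vivo* TECs, 3 partners were lower at D3 (*Atf1*, *Irf1* and *Irf2*) and *Nfkb1* higher, and 3 were lower at D7 (*Nfya*, *Atf1* and *Irf1*) and *Rela* higher, beside 28.2% and 34.8% of all genes called.

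The other loading and trimming genes were called in both directions. Of 10 loading and folding partners, *Canx*, *Pdia3* and *Ganab* were lower *in vivo* than in 2D, *Pdia3* was the one lower in D3 organoids, and at D7 *Pdia3*, *Ganab*, *Hsp90b1* and *Pdia6* were lower and *Prkcsh* higher. The counts of 3 and 1 called were below the 41.6% and 38.3% of all genes called in these comparisons, and that at D7 near 45.5%. Against *in vivo* TECs, *Canx* and *Ganab* were higher at D3, and *Pdia3*, *Prkcsh* and *Pdia4* higher and *Pdia6* lower at D7, beside 28.2% and 34.8% of all genes. *Pdia3*, encoding the oxidoreductase ERp57 of the loading complex, had 365.2 and 434.3 CPM *in vivo*, 687.8 and 755.5 in 2D, 379.9 and 358.9 in D3 organoids and 502.5 and 556 in D7 organoids. *Hsp90b1*, encoding an endoplasmic reticulum chaperone, fell from 987.9 and 781.3 CPM at D3 to 606.1 and 628.7 CPM at D7 (log2 fold change −0.52, adjusted p = 0.0252). Of 8 other peptidases, *Tpp2*, *Nln* and *Npepps* were lower than in 2D *in vivo*, at D3 and at D7, and *Lnpep* at D3, beside 19.9%, 19.1% and 21.1% of all genes lower. *Npepps*, encoding a cytosolic aminopeptidase, had 313.4 and 358.2 CPM in 2D and 97.9 to 134.6 CPM in the other 6 libraries. *Blmh*, encoding bleomycin hydrolase, was 129.5 to 144 CPM in organoids and 63.2 to 79.5 CPM elsewhere, above 2D at D3 with adjusted p = 0.000329, and *Thop1* was also higher at D7 than in 2D (adjusted p = 0.0334).

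**Figure D4:**
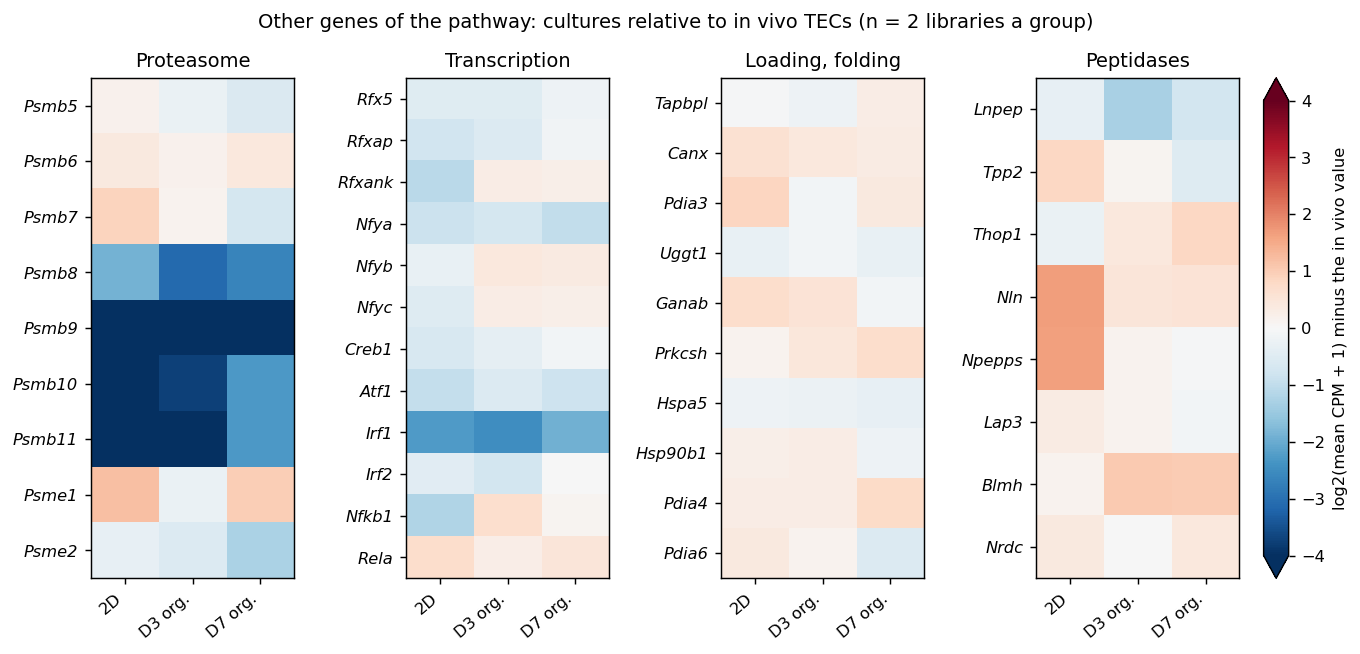
Difference of log2(mean CPM + 1) between each culture and *in vivo* TECs (colour, 0 is white, scale ends at −4 and 4) for the listed proteasome, transcription, loading and peptidase genes, n = 2 libraries a group. The proteasome subunits *Psmb8* to *Psmb11* and the transcription partner *Irf1* are the darkest rows, and *Psmb11* is lighter in D7 organoids, at 106.1 and 112.3 CPM, than in 2D or at D3.

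Of 20 other class I heavy chain and class I-like genes listed, 19 were found and 9 were tested. Of these 1 was called at D3 and 2 at D7 against 2D, and 2 and 4 against *in vivo*, beside 38.3%, 45.5%, 28.2% and 34.8% of all genes. *Fcgrt*, encoding the neonatal Fc receptor chain, which pairs with β2-microglobulin but presents no peptide, was higher in D7 organoids than *in vivo*, where *B2m* was lower. It had 6.42 and 4.92 CPM *in vivo*, 3.08 and 1.67 in 2D, 7.08 and 9.20 in D3 organoids and 35.9 and 40.4 in D7 organoids. D7 organoids exceeded D3 organoids by a log2 fold change of 2.22 (SE 0.311, adjusted p = 0.000129). *Mr1*, which presents vitamin metabolites, was higher in D7 organoids than in 2D (0.77, adjusted p = 0.0345). *H2-M2* was higher *in vivo* than in 2D and lower in both organoid groups than *in vivo*, *H2-Q4* was lower in both organoid groups than *in vivo*, and *H2-T22* was lower at D7. These last genes were named after their values were seen, and such heavy chain genes are close copies whose reads may be shared.

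Markers of other cells differed between the cultures. Of 12 thymocyte markers 4 were tested, and *Rag1*, *Ptprc* and *Lck* were at most 4.93 CPM in every culture. *Cd3e*, *Cd3d*, *Cd3g* and *Rag2* had means of 34.2, 46.5, 41.8 and 9.92 CPM *in vivo*. They were not tested because a gene needed 1 CPM in 3 or more libraries. *Thy1*, which fibroblasts also express, had 5.62 and 6.67 CPM in 2D, 0.169 and 0 in D3 organoids, 0.371 and 0.985 in D7 organoids and 49.6 and 21.2 *in vivo*, and it was lower at D3 and D7 than in 2D (adjusted p = 3.82e-05 and 0.000443). *Cd4*, *Cd8a* and *Dntt* had 2 counts or fewer in all 8 libraries. The summed level of 8 mesenchyme markers was 81.0 and 73.3 CPM in D7 organoids, above the 22.2 to 47.1 CPM of the other libraries. *Dcn* made up most of this sum at D7, with 53.4 and 50.8 CPM. *Col1a1* had 1.48 and 1.18 CPM in D7 organoids, 1.01 and 0.836 at D3, 12.9 and 9.63 in 2D and 8.33 and 4.08 *in vivo*. Of 6 tested mesenchyme markers, 2 were higher and 2 lower at D7 than in 2D, beside 24.4% and 21.1% of all genes. Of 10 myeloid markers *Lyz2* was the only one tested, at 12.1 and 10.3 CPM in D7 organoids and 0 to 3.12 CPM elsewhere. The sum of all 10 in D7 organoids was 12.5 and 11.6 CPM, so nearly all of it was *Lyz2* and the others were near 0. Summed levels of 6 endothelial markers were 0.506 to 5.20 CPM and those of 6 erythroid markers 0 to 11.9 CPM. Their part in the D7 values of the class I genes was not tested.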

How the data were processed

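Bulk RNA sequencing libraries (QuantSeq 3′, NextSeq 500) were aligned by the authors to GRCm39 with STAR 2.7.0e, and reads per Ensembl gene were deposited by the authors as raw counts, 1 table for each of 8 libraries. Which annotation release was counted, whether strand was used and how repeated matches were handled are not given in the sources used here. Symbols and positions were taken from GENCODE vM39 (GRCm39), which matched 56236 identifiers and left 687 unmatched. A gene was tested when 3 or more libraries reached 1 CPM. All 6 comparisons were made in 1 model of the 4 groups with edgeR 4.0.16 (quasi-likelihood test, TMM) in R 4.3.3, adjusted by Benjamini-Hochberg over 14504 genes. The procedure was tested on simulated counts. Alternatives used DESeq2 1.42.0 (size factors or Wald test), limma 3.58.1 (voom, the authors' test), library size alone, other filters, the libraries of 2 groups alone, a replicate block, no ribosomal RNA genes, and each library left out in turn.

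TMM factors were 0.880 to 1.09, and *Rn18s-rs5* took 16.6% to 24.3% of counts. Replicates of each group differed by more than sampling noise. The methods' filter and normalization were followed. The members and lists were chosen with earlier results of these data known. List genes were named when called in at least 1 comparison and among the 3 of their list with the highest mean CPM. Others named beside a count of 5 or fewer, or for *H2-Q4*, *H2-T22* and *H2-M2*, were chosen after their values were seen. The 5 genes most like *H2-K1* were named by r. *Nlrc5*, not tested, had no such genes. Genes sharing sequence or position with a member were named as its limit. Promoter windows came from RefSeq's table. Of the pathway lists, 1 gene is not reported here.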

Additional observations from a re-analysis of the deposited data

How the results depend on the processing

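Over 9 alternatives with all libraries and 8 with 1 library left out, 849 of the 906 fitted values of members kept their direction and their side of the threshold. The number of called members moved by over 1.5 times in the comparison of D7 with D3 organoids alone, from 3 to between 0 and 4 with 1 library left out. In the other comparisons it was 3 to 5 (*in vivo* against 2D), 3 to 6 (D3 against 2D, 6 with library size alone) and 5 to 6. None of the 26 values that changed sign had passed the test. With library size alone, which moved the median of all genes against 2D by 0.178 (*in vivo*), 0.263 (D3) and 0.205 (D7), *Erap1* was 0.21 at D3 and 0.11 at D7 and *Calr* 0.14 at D3 over 2D, while *Tap1* (0.84, adjusted p = 0.014) and *Tapbp* (0.75, adjusted p = 0.0074) passed the threshold at D3. *Calr* at D7 over 2D was −0.018 with DESeq2's size factors and with its Wald test, −0.009 without the filter, −0.024 with 4 libraries and −0.023 without ribosomal RNA genes. *H2-T23* at D3 over 2D was −0.28 with voom and −0.023 with the replicate block. With 1 library left out, values at D3 over 2D ranged from −1.51 to 0.72 for *H2-T23*, −0.19 to 0.11 for *Erap1* and −0.31 to 0.064 for *Calr*, and at D7 over 2D from −0.24 to 0.067 for *Erap1* and −0.025 to 0.067 for *Calr*. At D3 over *in vivo* they were −1.86 to 0.32 for *H2-T23* and −0.10 to 0.32 for *Calr*, and at D7 over D3 −0.17 to 0.017 for *B2m*, −0.059 to 2.00 for *Tap2*, −0.16 to 0.056 for *Erap1* and −0.088 to 0.33 for *Calr*. The cause was not tested. The labels number the replicates, but same-numbered libraries deviated together only weakly (r = 0.013 to 0.114 over genes), so the numbers were not taken as pairs. A replicate block put *H2-D1* (*in vivo* against 2D, −0.44, adjusted p = 0.0345) and *H2-K1* (D7 against D3, −0.51, adjusted p = 0.029) past the threshold and lost no call. Where a library was left out, the lone library of its group is assumed to vary like the others. Depth limits *Tap2*, *H2-T23* and *Nlrc5*, at 56 counts or fewer per library.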
